A study of Mus musculus with 8 samples.

Results

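The 10 genes described here carry peptides to the cell surface on MHC class I molecules. They are the transactivator *Nlrc5*, the heavy chains *H2-K1* and *H2-D1*, the light chain *B2m*, the peptide transporter genes *Tap1* and *Tap2*, the loading factor *Tapbp*, and the immunoproteasome subunits *Psmb8*, *Psmb9* and *Psmb10*. They were taken by gene symbol from a list that names them and sets no threshold on measured values, though it was drawn up with earlier results of these data known, and make up 10 of the 47937 gene identifiers counted. RNA was sequenced from mouse bone marrow-derived dendritic cells (BMDCs) of 2 genotypes, each untreated or treated with lipopolysaccharide (LPS, a bacterial ligand of TLR4), with 2 libraries in each of the 4 groups. The genotype labelled Grk 3xKO (KO below) came from mice with floxed *Grk2* and *Grk6* deleted by *Vav-iCre*, which acts from early blood precursors onward, and lacking *Grk3* (*Grk3-/-*), and the WT controls were Cre-negative. All mice were adults over 8 weeks old on a C57BL6/J background. Bone marrow was grown for 8 days in 20 ng/ml GM-CSF, a culture that yields dendritic cells and macrophages side by side, and then left untreated or given 20 ng/ml LPS for 24 h. GRKs phosphorylate activated G protein-coupled receptors. The labels do not say whether the 2 libraries of a group came from separate cultures or mice, and the study's methods speak of technical replicates, so p-values measure only the spread between these libraries.

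Class I molecules display peptides of cytosolic proteins to CD8+ T cells. Proteasomes cut the proteins, and interferons and inflammation exchange the constitutive catalytic subunits encoded by *Psmb5*, *Psmb6* and *Psmb7* for the immunosubunits encoded by *Psmb8*, *Psmb9* and *Psmb10*. TAP1 and TAP2 pump the peptides into the endoplasmic reticulum, where tapasin (*Tapbp*) bridges the transporter to the heavy chain bound to β2-microglobulin (*B2m*). NLRC5 binds no DNA itself but drives class I promoters together with factors that sit on their conserved elements. In dendritic cells this route also serves cross-presentation of antigen taken up from other cells.

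Libraries held between 4713305 and 6933358 counts on genes. The targeted transcripts were at 46.4% (*Grk2*), 78.1% (*Grk3*) and 43.9% (*Grk6*) of WT in untreated KO cells, and at 27.0%, 75.0% and 34.4% of WT after LPS, in counts over whole genes, which do not separate deleted from retained exons. Genes changed widely between genotypes, so that the calls of any gene list have to be read against the share of all genes called. At an adjusted p under 0.05 (edgeR quasi-likelihood test), 44.7% of 12000 genes tested differed between genotypes in untreated cells, 22.1% higher and 22.7% lower in KO, and 48.6% of 11830 genes did so after LPS, 24.7% higher and 24% lower. Levels below are CPM, the counts of a gene relative to library size, with TMM scaling over all 8 libraries. In the KO library of LPS replicate 2, *Gm42418*, which overlaps ribosomal RNA, took 2.16% of counts, against 0.273% to 0.638% in the other libraries. Macrophage markers, such as *Adgre1* and *Csf1r*, moved strongly with genotype. The summed level of the 10 macrophage markers was 2143 to 2163 CPM in untreated WT and 9277 to 9285 CPM in untreated KO libraries, and 720 to 738 CPM in WT and 10180 to 10320 CPM in KO libraries after LPS. *Lyz2*, which encodes lysozyme, made up most of the untreated sums, at 1306 to 1355 CPM in WT and 7068 to 7093 CPM in KO, and after LPS it was at 281 to 292 CPM in WT and 4558 to 4614 CPM in KO, with the protease gene *Ctsl* at 45.2 to 46.6 CPM and 2898 to 2921 CPM. The other 8 macrophage markers summed to 762 to 793 CPM in untreated WT and 1433 to 1488 CPM in untreated KO, and to 394 to 400 CPM in WT and 2725 to 2785 CPM in KO after LPS; of these *C1qa* (-1.61) and *Fcgr1* (-0.64) were lower in untreated KO cells. The summed level of 10 dendritic cell markers was 22330 to 22530 CPM in untreated WT, 12180 to 12410 CPM in untreated KO, 15310 to 16700 CPM in WT after LPS and 13120 to 13360 CPM in KO after LPS, with none of the 10 at 3 counts or fewer throughout. The class II genes *Cd74*, *H2-Aa* and *H2-Ab1* made up most of this sum, at 19330 to 19580 CPM in untreated WT, 9047 to 9279 CPM in untreated KO, 10710 to 11890 CPM in WT after LPS and 9245 to 9396 CPM in KO after LPS. The other 7 markers summed to 2953 to 2995 CPM in untreated WT and 3132 to 3136 CPM in untreated KO, and to 4602 to 4808 CPM in WT and 3873 to 3969 CPM in KO after LPS. Eosinophil markers summed to 1001 to 1112 CPM in WT and to 39.6 to 62.2 CPM in KO libraries. Of the defining lymphocyte and erythroid markers, *Cd3e*, *Ms4a1*, *Cd79a*, *Hbb-bs* and *Alas2* stayed at 3 counts or fewer in each library. The part of cell composition in the results below was not tested, and in such bulk samples a change in the number of cells of a type cannot be told apart from a change in RNA per cell.

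Of the 10 genes, 7 lie on chromosome 17 (GRCm38), in or near the MHC. *Psmb9* (34181987 to 34187764, minus strand), *Tap1* (34187553 to 34197225), *Psmb8* (34197721 to 34201454) and *Tap2* (34203527 to 34216321) follow each other, with *H2-K1* (33996017 to 34000347, minus strand) and *Tapbp* (33915899 to 33929292) on one side and *H2-D1* (35262730 to 35267499) farther off on the other. *B2m* is on chromosome 2 (122147686 to 122153083), and *Psmb10* (105935735 to 105938444, minus strand) and *Nlrc5* (94434356 to 94527272) are on chromosome 8. RefSeq promoter windows (GRCm38.p6, from 250 bases upstream to 50 bases downstream of a start site) were at hand for 8 of the 10 genes. They were searched on both strands for a short form of the interferon-response motif (GAANNGAAA), the NF-kB consensus, a STAT-type motif (TTCNNNGAA) and the CCAAT box. That short form lay in 7.51% of the 32841 windows, the NF-kB consensus in 5.81%, the STAT-type motif in 8.3% and CCAAT in 37.4%. Both of the first 2 were in 0.353% of windows, and the windows of *H2-K1* and *H2-D1* were among them. The stretches below are shown for the 3 genes of the list with an NF-kB match, so the presence of a match in each is no finding. Capitals mark the NF-kB match and, in *H2-K1* and *H2-D1*, the match to the short interferon-response form that follows it.
H2-K1, chr17:34000379-34000498, minus strand: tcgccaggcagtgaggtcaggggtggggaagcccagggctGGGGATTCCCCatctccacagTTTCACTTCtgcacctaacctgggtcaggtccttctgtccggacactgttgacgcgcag
H2-D1, chr17:35262883-35263002, plus strand: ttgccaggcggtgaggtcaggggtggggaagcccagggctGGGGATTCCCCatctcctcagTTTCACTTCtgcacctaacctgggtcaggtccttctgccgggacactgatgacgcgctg
B2m, chr2:122147521-122147640, plus strand: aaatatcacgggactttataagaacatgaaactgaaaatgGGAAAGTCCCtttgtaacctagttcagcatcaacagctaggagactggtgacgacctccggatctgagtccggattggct

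*H2-K1* and *H2-D1* are identical at 113 of these 120 positions (94.2%), and both carry the same overlapping pair of NF-kB matches and the same match to the short interferon-response form. *B2m* has an NF-kB match of its own sequence. Each stretch was cut to start equally far before that match, so its shared place in the stretch is no finding, and the matches begin at positions -111 (*H2-K1*), -171 (*H2-D1*) and -126 (*B2m*) from the start sites. The GAANNGAAA letters are not in the *B2m* window, but a longer form of the interferon-response motif, with 1 more A after the first GAA (in 3.44% of all windows), lies there at positions -139 to -130, just before the NF-kB match, and is not capitalised above. This longer form was searched after the sequences were seen and was not in the windows of the other 7 genes. *Psmb8* held the STAT-type motif, and CCAAT was in 6 of the 8 windows. The RefSeq start sites of *Tap1* and *Psmb9* have 225 bases between them and are read away from each other. This stretch, chr17:34187331-34187555, is shown because the ratio of the 2 transcripts differed between groups (plus strand, running toward *Tap1*).
Tap1-Psmb9: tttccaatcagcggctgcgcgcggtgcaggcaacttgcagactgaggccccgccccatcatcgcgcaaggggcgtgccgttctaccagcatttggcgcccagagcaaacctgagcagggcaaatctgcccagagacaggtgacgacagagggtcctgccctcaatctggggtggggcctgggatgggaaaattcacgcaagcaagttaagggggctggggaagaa

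Of the 4 motifs, a CCAAT box at 34187334 to 34187338, beside the *Psmb9* start, was in that stretch and the letters of the other 3, the longer interferon-response form included, were not. A match of letters describes the sequence and shows no binding.

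**Figure D1:**
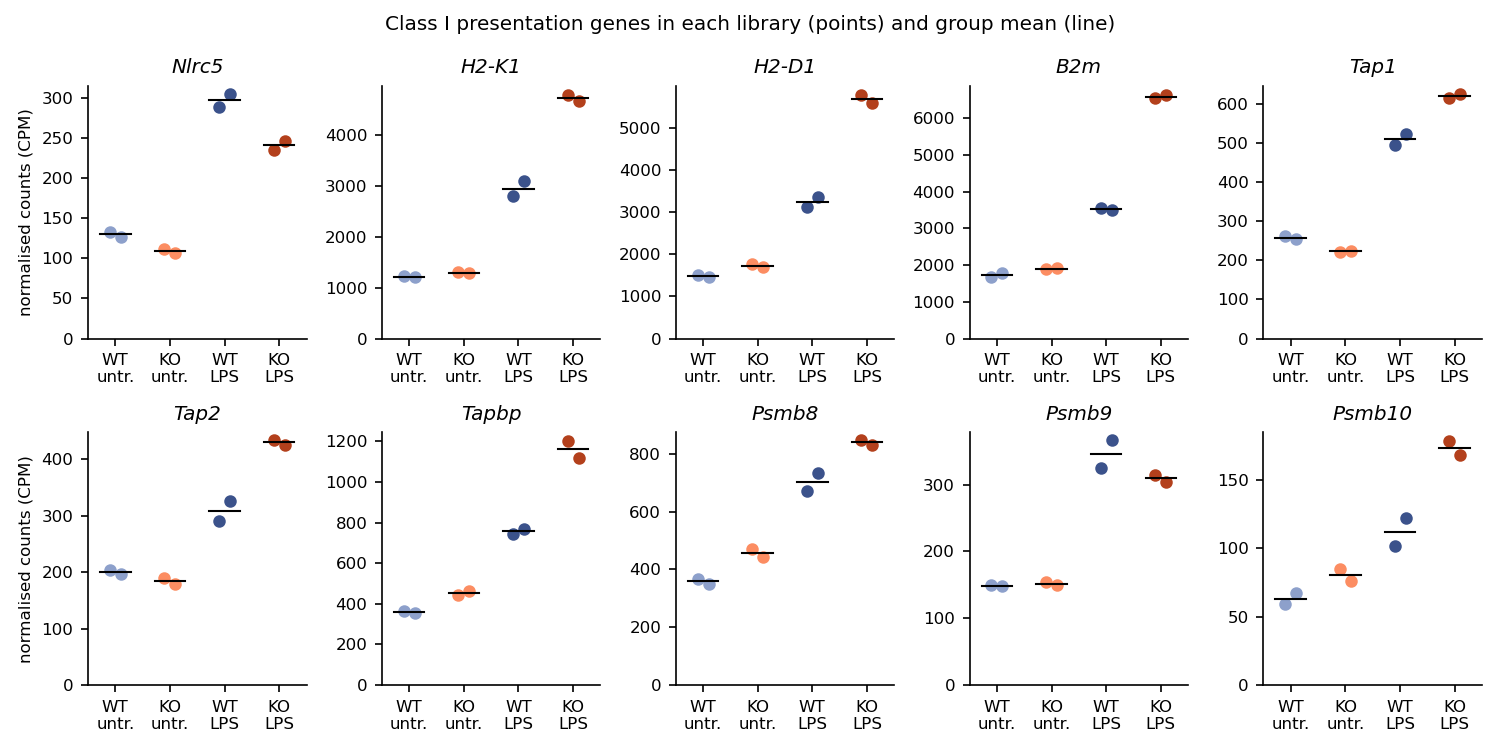
Normalized counts (CPM, TMM over 8 libraries) of the 10 genes, from 0, in each library (points) with the group mean (line), for WT and KO cells, untreated (untr.) and after LPS. All 10 genes stood higher after LPS in both genotypes, and in LPS-treated cells *B2m* reached 6556 and 6633 CPM in KO against 3547 and 3498 CPM in WT.

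The genotypes were compared first in untreated cells, to ask how far class I genes differed without LPS. Of the 10 genes, 8 differed at an adjusted p under 0.05, 6 higher and 2 lower in KO, against 44.7% of all genes tested. The differences were small: the median log2 fold change of the 10 genes was 0.117, beside -0.002 for all genes. No gene of the list reached a log2 fold change of 1. The libraries of the genotypes did not overlap for any of the 10 genes, as was the case for 69.1% of all genes tested. All 10 genes passed the filter on low counts in each comparison, with at least 309 counts in every library.

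*Nlrc5*, the transactivator, was at 133 and 127 CPM in the untreated WT libraries and at 112 and 106 CPM in KO. Both KO libraries were below both WT libraries, a difference of -0.25 ± 0.06 on the log2 scale (standard error, as for each value below, adjusted p = 0.000119). DESeq2 gave an adjusted p of 0.0825 for it. The heavy chain genes were slightly higher in KO. *H2-K1* was at 1233 and 1200 CPM in WT and 1297 and 1294 CPM in KO (log2 fold change 0.09 ± 0.03, adjusted p = 0.0127). *H2-D1* was at 1514 and 1457 CPM in WT and 1760 and 1692 CPM in KO (0.22 ± 0.03, adjusted p = 8.36e-12). For *B2m*, the values were 1664 and 1780 CPM in WT and 1888 and 1916 CPM in KO (0.14 ± 0.03, adjusted p = 6.57e-06). With scaling by library size only, the differences of *H2-K1* and *B2m* were 0.01 (adjusted p = 0.914) and 0.06 (adjusted p = 0.108), and that of *H2-K1* also lost its call when all 8 libraries were fitted together (adjusted p = 0.102), without WT replicate 2 (0.151) and without KO replicate 1 (0.0596).

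The genes of the loading complex split. *Tap1* was lower in KO, at 222 and 225 CPM against 261 and 254 CPM in WT (-0.21 ± 0.05, adjusted p = 3.74e-05). *Tap2*, its partner in the transporter, was at 203 and 196 CPM in WT and 190 and 179 CPM in KO (-0.11 ± 0.05, adjusted p = 0.0535), which did not pass. Over the alternatives its difference lay between -0.20 and -0.07 and passed in some of them. *Tapbp* rose from 364 and 356 CPM to 445 and 463 CPM (0.34 ± 0.04, adjusted p = 2.66e-15). *Tapbp* shares 24.92% of its exonic bases with the antisense gene *Gm19412*, and *Tap2* shares 14.1% with *Gm15821* and 4.36% with *Gm20496*. *Psmb8* shares 14.73% with *Gm20496*. These 3 partners lie on the opposite strand, and the strand setting of the counting is not given in the sources used here. Reads of these genes and their partners therefore cannot be told apart. *Tapbp* also shares 4.11% with the protein-coding gene *Zbtb22* on the same strand, an overlap that no strand setting separates.

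The immunosubunits did not move as a unit either. *Psmb8* (LMP7) rose from 366 and 351 CPM in WT to 472 and 444 CPM in KO (0.36 ± 0.04, adjusted p = 3.85e-17), and *Psmb10* (MECL-1) from 59.0 and 67.0 CPM to 85.1 and 75.7 CPM (0.34 ± 0.08, adjusted p = 2.39e-05). *Psmb9* (LMP2) was at 149 and 148 CPM in WT and 154 and 150 CPM in KO, a difference of 0.03 ± 0.05 that did not pass (adjusted p = 0.679) and that was -0.05 with scaling by library size only. When every gene was given one biological coefficient of variation of 0.4 in edgeR, as between unrelated samples, 0 of the 10 genes passed in untreated cells, also at an unadjusted p under 0.05, whereas DESeq2 called 7.

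After LPS the genotypes stood farther apart. All 10 genes passed, 8 higher and 2 lower in KO, against 48.6% of all genes tested, and their median log2 fold change was 0.55, beside -0.01 for all genes. KO and WT libraries did not overlap for any of the 10, as for 72.6% of all genes tested. DESeq2 called 8 of the 10 higher and 1 lower, and without the KO library rich in *Gm42418* 9 of the 10 passed. With the coefficient of variation set to 0.4, edgeR called 0 of the 10, and 0 at an unadjusted p under 0.05.

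Transcripts for the heavy and light chains of the surface complex differed most, and their protein was not measured here. *B2m* was at 3547 and 3498 CPM in WT and 6556 and 6633 CPM in KO, a log2 fold change of 0.90 ± 0.04 (adjusted p = 4.28e-13). For *H2-D1*, WT libraries held 3126 and 3352 CPM and KO libraries 5781 and 5593 CPM (0.81 ± 0.05, adjusted p = 7.3e-12). *H2-K1* was at 2801 and 3090 CPM in WT and 4781 and 4657 CPM in KO (0.68 ± 0.05, adjusted p = 3.46e-10). These 3 genes alone took 0.909% and 0.944% of all counts in LPS-treated WT libraries and 1.553% and 1.502% in KO. These are shares of library size with no TMM scaling, and they move with the composition of the library. *H2-D1* shares 13.93% and *H2-K1* 6.87% of their 50-base stretches with transcripts of other genes, most often *H2-Q1* for *H2-D1* and *H2-D1* for *H2-K1*, so that their split of reads is uncertain, while *B2m* shares none.

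*Tapbp*, *Tap2* and *Tap1* were also higher in KO. *Tapbp* was at 745 and 770 CPM in WT and 1202 and 1120 CPM in KO (0.62 ± 0.06, adjusted p = 8.88e-09). *Tap2* was at 290 and 326 CPM in WT and 434 and 425 CPM in KO (0.48 ± 0.06, adjusted p = 2.23e-06). *Tap1*, which was lower in untreated KO cells, was at 496 and 523 CPM in WT and 615 and 626 CPM in KO after LPS (0.28 ± 0.06, adjusted p = 0.000343).

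Of the immunosubunits, *Psmb10* differed most, with 101 and 122 CPM in WT and 179 and 169 CPM in KO (0.63 ± 0.08, adjusted p = 1.31e-06). *Psmb8* was at 672 and 734 CPM in WT and 849 and 831 CPM in KO (0.26 ± 0.06, adjusted p = 0.000941). *Psmb9* was the exception, with 325 and 367 CPM in WT and 315 and 304 CPM in KO (-0.16 ± 0.07, adjusted p = 0.0448). This call was close to the threshold and was lost in DESeq2 (adjusted p = 0.234), with RLE size factors (0.0606), without WT replicate 2 (0.38), and without KO replicate 1 (0.203) or 2 (0.428).

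*Nlrc5* was lower in KO here too, at 235 and 247 CPM against 289 and 305 CPM in WT (-0.30 ± 0.06, adjusted p = 0.000342). The call was lost without KO replicate 1 (adjusted p = 0.0539). Of genes it is known to act on, *H2-K1*, *H2-D1*, *B2m* and *Tap1* differed in the opposite direction to *Nlrc5* between genotypes after LPS, and *Psmb9* in the same direction. The *Psmb9* call was lost under several alternatives, as given above. In untreated cells *Tap1* was lower in KO, as *Nlrc5* was (-0.21 and -0.25), while *H2-K1*, *H2-D1* and *B2m* were higher. Within single libraries, which needs no scaling, the log2 ratio of *B2m* to *Nlrc5* counts was 3.62 and 3.52 in WT and 4.80 and 4.75 in KO, a difference of 1.21. For *H2-K1* to *Nlrc5* the difference was 0.98 and for *H2-D1* to *Nlrc5* 1.12, with no overlap between genotypes. With 2 libraries against 2, an exact two-sided permutation test cannot go below p = 0.333, which each of these ratios reached. These ratios were chosen after the values were seen.

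**Figure D2:**
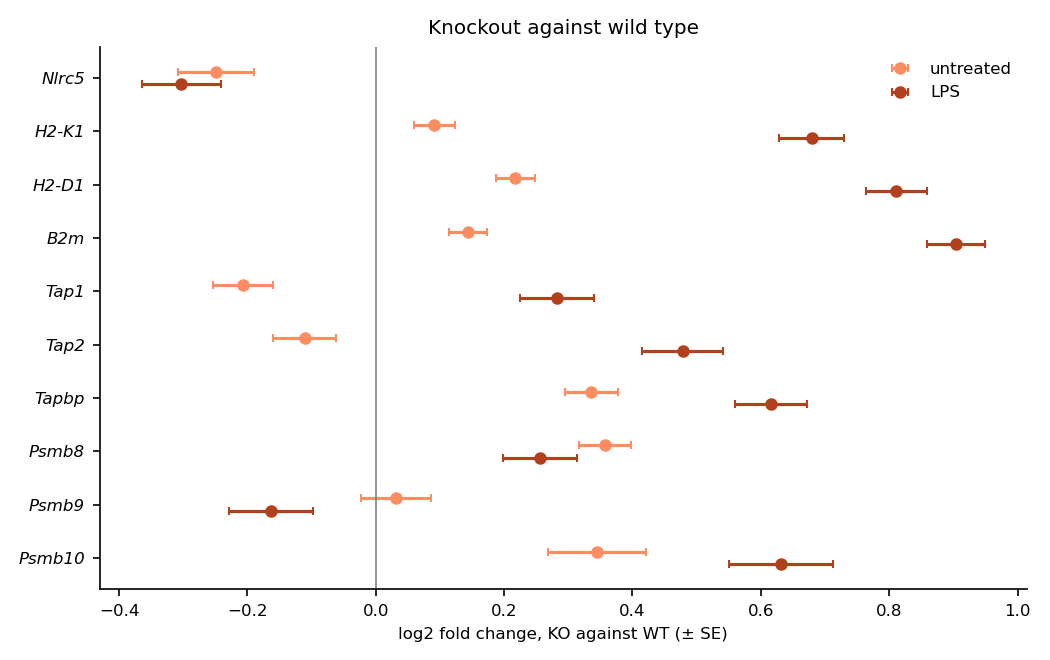
Log2 fold change of KO against WT with its standard error for each gene (rows), in untreated and LPS-treated cells, with 0 as a line. After LPS, *B2m*, *H2-D1* and *H2-K1* lay farthest to the right, at 0.90, 0.81 and 0.68, while *Nlrc5* lay left of 0 under both conditions and *Tap1*, *Tap2* and *Psmb9* lay on different sides of 0 in the 2 conditions, of which *Tap2* and *Psmb9* did not pass in untreated cells.

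LPS raised all 10 genes in each genotype. In WT cells the 10 genes rose by a median log2 fold change of 1.05, beside -0.015 for all genes, and 29.5% of the 12541 genes tested were called higher. In KO cells the median was 1.29, beside -0.01 for all genes, and 28% of genes were called higher. The untreated and LPS-treated libraries were deposited in separate tables, and any difference in handling between the tables cannot be told apart from LPS. In WT, *H2-K1* rose most, by 1.28 ± 0.04 on the log2 scale (2.42-fold, adjusted p = 6.03e-20), followed by *Psmb9* (1.22 ± 0.06) and *Nlrc5* (1.19 ± 0.06). *Tap2* rose least, by 0.63 ± 0.06 (1.55-fold). In KO cells *H2-K1* (1.87 ± 0.04, 3.64-fold), *B2m* (1.79 ± 0.04, 3.47-fold) and *H2-D1* (1.72 ± 0.04, 3.29-fold) rose most and *Psmb8* least (0.87 ± 0.05, 1.83-fold). With the coefficient of variation set to 0.4, edgeR called 0 of the 10 in WT, 3 at an unadjusted p under 0.05, and 2 in KO, while DESeq2 called 10 in each.

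**Figure D3:**
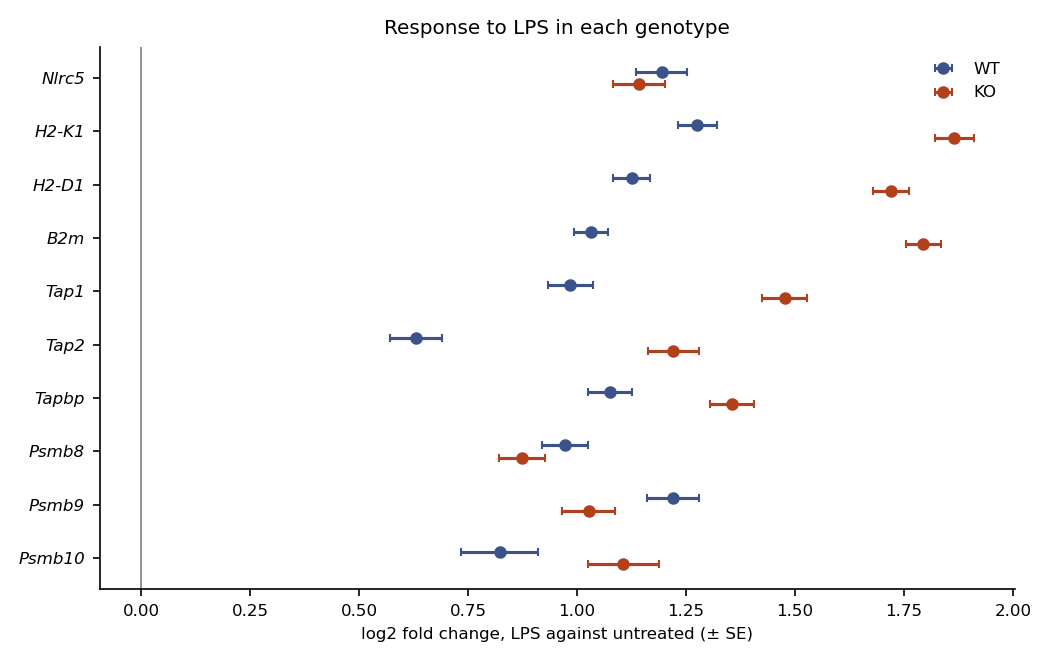
Log2 fold change of LPS against untreated with its standard error for each gene, in WT and KO cells, from one fit of all 8 libraries. All points lie right of 0, and the KO points of *H2-K1*, *H2-D1*, *B2m*, *Tap1*, *Tap2*, *Tapbp* and *Psmb10* lie right of the WT points, the term of *Psmb10* not passing the interaction test.

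Whether the response to LPS differed between genotypes was tested by an interaction term. It passed for 6 of the 10 genes, all with a larger response in KO, where 32.5% of all genes tested passed, 16.5% with a higher and 16% with a lower value in KO. *B2m* had the largest term (0.76 ± 0.05, adjusted p = 5.79e-12), with responses of 1.03 in WT and 1.79 in KO. *H2-D1* (0.60 ± 0.06, adjusted p = 2.94e-09), *Tap2* (0.59 ± 0.08, adjusted p = 1.93e-06) and *H2-K1* (0.59 ± 0.06, adjusted p = 8.51e-09) followed. The terms of *Tap1* (0.49 ± 0.07, adjusted p = 4.13e-06) and *Tapbp* (0.28 ± 0.07, adjusted p = 0.00235) were smaller. The term of *Nlrc5* was -0.05 (95% interval -0.22 to 0.11, adjusted p = 0.691), with responses of 1.19 in WT and 1.14 in KO.

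The 3 immunosubunits did not pass the interaction test. *Psmb8* responded by 0.97 in WT and 0.87 in KO (term -0.10, 95% interval -0.24 to 0.05, adjusted p = 0.337). *Psmb9* responded by 1.22 in WT and 1.03 in KO (term -0.19, interval -0.36 to -0.03, adjusted p = 0.086). *Psmb10* responded by 0.82 in WT and 1.11 in KO (term 0.28, interval 0.05 to 0.52, adjusted p = 0.0736). The term of *Psmb10* passed without a filter on low counts (adjusted p = 0.0407) and with at least 10 counts in every library (0.0416). Leaving out each library moved it between 0.16 (without WT LPS replicate 1) and 0.42 (without WT LPS replicate 2, adjusted p = 0.00109), and it also passed without WT untreated replicate 1 (0.0315) and without KO untreated replicate 1 (0.0441). The term of *Psmb9* lay between -0.28 (without WT LPS replicate 1, adjusted p = 0.00166) and -0.10 (without WT LPS replicate 2), and that of *Psmb8* between -0.17 (without WT LPS replicate 1, adjusted p = 0.0351) and -0.04. With the coefficient of variation set to 0.4, edgeR called 0 of the 10 terms, and 0 at an unadjusted p under 0.05, while DESeq2 called 6.

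Macrophage markers moved in the same comparisons, beside the class I genes. Of 10 such markers, 7 were higher and 2 lower in untreated KO cells (median log2 fold change 1.06) and 10 were higher after LPS (median 2.96), and all 10 had a larger LPS response in KO. Marker counts stand beside 44.7% of all genes called in untreated cells, 48.6% after LPS and 32.5% for the interaction. Of 10 dendritic cell markers, 3 were higher and 6 lower in untreated KO cells and 2 were higher and 8 lower after LPS. Neutrophil markers (5 of 8 lower in untreated KO, 6 of 8 after LPS) and eosinophil markers (4 of 5 lower in untreated KO, 5 of 5 after LPS) fell. Of 4 mast cell and basophil markers tested, 2 were lower in KO under each condition, and of the plasmacytoid dendritic cell markers *Bst2* and *Tcf4* were lower in untreated KO cells (-0.34 and -0.46), with *Bst2* higher (1.25) and *Tcf4* lower (-0.55) after LPS. The other plasmacytoid markers, *Siglech* and *Ly6d*, stayed at 0 or 1 count in each library. Their part in the differences of class I genes was not tested.

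The balance of immunosubunit to constitutive transcripts was read within a library as the log2 ratio of the matching counts. Which subunits were built into proteasomes was not measured, and a ratio also falls where the constitutive transcript rises. The constitutive genes *Psmb5*, *Psmb6* and *Psmb7* were all higher in KO under both conditions, by 0.54, 0.41 and 0.28 in untreated cells and by 0.41, 0.75 and 0.23 after LPS. The *Psmb9* to *Psmb6* ratio was 0.59 and 0.54 in untreated WT and 0.21 and 0.17 in untreated KO, and 1.64 and 1.73 in WT and 0.75 and 0.79 in KO after LPS. Genotypes did not overlap, and the KO minus WT difference was -0.38 in untreated cells and -0.91 after LPS. The *Psmb8* to *Psmb5* ratio was 2.49 and 2.40 in untreated WT, 2.23 and 2.28 in untreated KO, 3.13 and 3.15 in WT after LPS and 2.97 and 3.00 in KO after LPS. It too was lower in KO, by 0.19 and 0.16, although *Psmb8* counts themselves were higher.

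The *Psmb10* to *Psmb7* ratio went the other way after LPS. It was -0.15 and 0.06 in WT and 0.44 and 0.29 in KO, a difference of 0.41 without overlap. In untreated cells the genotypes overlapped, at -0.65 and -0.52 in WT and -0.38 and -0.65 in KO. LPS raised the 3 ratios in WT by 0.70 (*Psmb8*), 1.12 (*Psmb9*) and 0.54 (*Psmb10*), and in KO by 0.73, 0.59 and 0.88. The exact two-sided permutation test gave p = 0.333 for each of these differences apart from *Psmb10* to *Psmb7* in untreated cells (p = 0.667), and 2 against 2 libraries can give none smaller than the first.

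**Figure D4:**
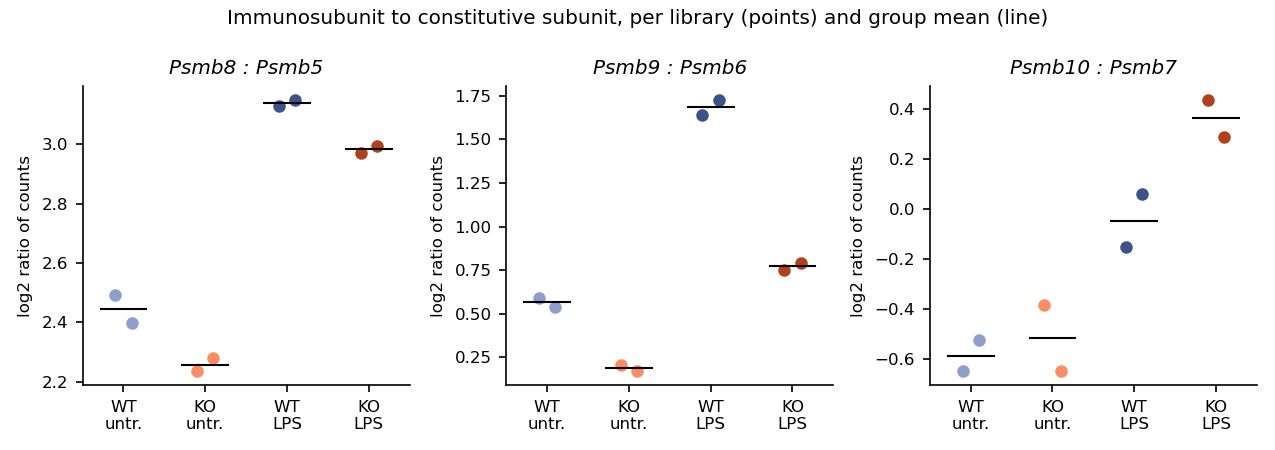
Log2 ratio of the counts of each immunosubunit gene to those of its constitutive counterpart, in each library (points) with the group mean (line); the vertical axes do not start at 0. Ratios rose with LPS in each genotype, KO stood below WT for *Psmb9* to *Psmb6* (group means 1.68 in WT and 0.77 in KO after LPS), and above it after LPS for *Psmb10* to *Psmb7*.

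*Tap1* and *Psmb9*, which share the short stretch between their start sites shown above, had a ratio that depended on genotype and LPS. The log2 ratio of *Tap1* to *Psmb9* counts was 0.81 and 0.78 in untreated WT and 0.53 and 0.58 in untreated KO, a difference of -0.24. After LPS it was 0.61 and 0.51 in WT and 0.97 and 1.04 in KO, a difference of 0.44 in the other direction (exact two-sided permutation p = 0.333 each). The genes overlap by 212 exonic bases on opposite strands, 3.87% of *Tap1* and 5.79% of *Psmb9*. This ratio was chosen after the values were seen.

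The order of the genes by level was read per length, in CPM per kb of the principal transcript. In untreated WT cells *B2m* was highest (2002), followed by *H2-K1* (751), *H2-D1* (707), *Psmb8* (220), *Tapbp* (124), *Psmb9* (110), *Tap1* (87.3), *Tap2* (58.0), *Psmb10* (48.1) and *Nlrc5* (17.2). After LPS *B2m* stood at 4096 in WT and 7668 in KO, and *Nlrc5* at 39.2 and 31.8, so that both ends of the order stayed in place. *Tapbp* and *Psmb9*, and *Tap2* and *Psmb10*, had libraries that overlapped in WT after LPS. With the length of all exons of a gene in place of the principal transcript, *H2-D1* stood above *H2-K1* in each group.

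Other class I and class I-like heavy chain genes also stood apart between genotypes after LPS. Of 16 such genes, 13 were tested after LPS, and KO was called above WT for 10 and below for 2, at a median log2 fold change of 1.11. Without *H2-Q10*, a gene of few counts, 12 were tested after LPS, 9 higher and 2 lower in KO, at a median of 1.106. Their median in untreated cells was 0.03, where KO exceeded WT for 5 of 12 genes tested and fell short for 2. Among all genes tested, 44.7% were called in untreated cells and 48.6% after LPS. *H2-Q6* was at 262 and 259 CPM in untreated WT and 271 and 262 CPM in untreated KO, and at 891 and 958 CPM in WT and 2022 and 1939 CPM in KO after LPS (1.10, adjusted p = 4.0e-13). *H2-T24* had the largest upward difference in untreated cells, at 3.82 and 2.94 CPM in WT and 8.08 and 6.08 CPM in KO (1.10), and *H2-Q10*, which was tested after LPS but too low to test in untreated cells, the largest after LPS, with 9 and 20 counts in WT and 102 and 82 in KO (2.698). *H2-Q10* passed the filter through the KO libraries in which it was high. *H2-T22* and *H2-T23* were chosen after their values were seen. *H2-T22* was at 309 and 355 CPM in WT and 829 and 815 CPM in KO after LPS (1.31). *H2-T23*, which encodes the Qa-1 molecule that holds leader peptides of other class I chains, was at 660 and 687 CPM in WT and 1134 and 1098 CPM in KO after LPS (0.73). The genes of the Q and T regions are close copies of one another, so that reads may be split among them.

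Others of this list took other courses. *H2-M2* was lowered by LPS in both genotypes, from 187 and 190 CPM to 50.8 and 51.8 CPM in WT and from 346 and 322 CPM to 223 and 216 CPM in KO, and was higher in KO under both conditions (0.83 and 2.09). *Fcgrt*, the neonatal Fc receptor chain that pairs with β2-microglobulin but presents no peptide, was lower in KO, at 16.5 and 16.0 CPM against 79.9 and 81.7 CPM in untreated WT (-2.32), and also after LPS (-0.97). *Cd1d1*, which presents lipids, was higher in untreated KO cells (0.45) and lower after LPS (-0.31). The interaction term passed for all 13 genes tested, 12 upward and *Cd1d1* downward (-0.75), and without *H2-Q10* for 12 of 12, 11 of them upward. It passed for 32.5% of all genes tested.

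Genes for loading and trimming of peptides showed no common direction. Of 10, 2 were higher and 4 lower in untreated KO cells, and 4 were higher and 3 lower after LPS. Beside these counts, 44.7% and 48.6% of all genes tested were called in either direction. In untreated cells *Tapbpl*, a relative of tapasin, was highest (0.39) and the peptidase gene *Blmh* lowest (-0.48). *Calr*, which holds heavy chains bound to β2-microglobulin in the loading complex, was at 469 and 516 CPM in WT and 834 and 831 CPM in KO after LPS (0.76, adjusted p = 8.5e-10). *Erap1*, which trims peptides in the endoplasmic reticulum, was higher in KO after LPS (0.29, adjusted p = 0.0088), while the cytosolic peptidases *Lap3* (-0.60) and *Tpp2* (-0.60) were lower.

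Other proteasome genes were counted by their place in the complex. Their counts stand beside 44.7% of all genes called between genotypes in untreated cells and 48.6% after LPS. Of 11 other subunits of the 20S core, 4 were higher, led by *Psma6* (0.20), and *Psmb1* was lower (-0.15) in untreated KO cells, and after LPS *Psma6* (-0.31) and *Psmb1* (-0.19) were lower and the other 9 did not pass. Of 18 genes of the 19S cap, 7 were higher in KO in untreated cells and 7 after LPS, with the other 11 of each comparison not passing. The sets differed, since *Psmd11* passed in untreated cells but not after LPS (0.04). The 18 values lay between -0.02 (*Psmc1*) and 0.30 (*Psmd11*) in untreated cells and between -0.11 (*Psmd14*) and 0.38 (*Psmd8*) after LPS. Among 9 activator and assembly genes, *Psme1* and *Psme2*, whose products form the interferon-inducible PA28 cap, were higher in untreated KO cells (0.17 and 0.36) and lower after LPS (-0.23 and -0.20). The assembly chaperone *Psmg4* was lower after LPS (-0.76), and *Psmg1* (0.40 after LPS) and *Psmg2* (-0.37 untreated), the other ends of the range, did not pass. The responses of *Psme1* and *Psme2* to LPS were smaller in KO, with interaction terms of -0.40 (adjusted p = 0.00012) and -0.56 (adjusted p = 1.1e-06).

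Among 19 genes for transcription factors of class I promoters and for interferon receptor chains, 7 were higher and 2 lower in untreated KO cells, and 8 were higher and 3 lower after LPS. The shares of all genes called in either direction were 44.7% and 48.6%, so these counts are near those of any genes. *Irf1* was higher in KO under both conditions (0.45 and 0.48). *Ifnar2*, a chain of the type I interferon receptor, was at 41.2 and 51.7 CPM in WT and 136 and 145 CPM in KO after LPS (1.59). *Irf8* was higher in untreated KO cells, at 507 and 507 CPM against 278 and 294 CPM, and lower after LPS, at 999 and 963 CPM against 1450 and 1498 CPM. *Rfx5*, whose product binds the conserved class I promoter elements, did not pass in either condition (-0.09 in each), and *Nfyb*, a subunit of the CCAAT-binding factor, was lower in untreated KO cells (-0.40).

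**Figure D5:**
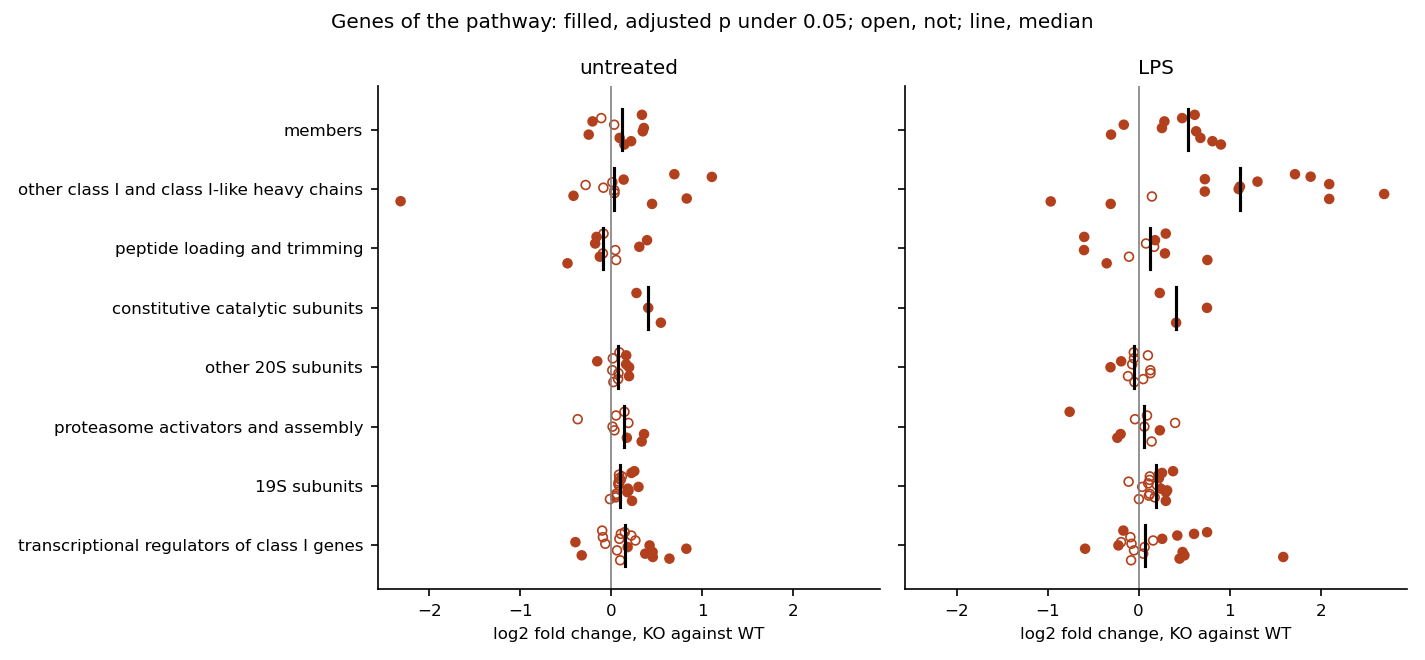
Log2 fold change of KO against WT for the 10 genes (top row, members) and the wider lists of class I pathway genes, in untreated cells (left) and after LPS (right); filled points passed an adjusted p under 0.05, open points did not, and lines are medians. After LPS the heavy chain list lies farthest right, with a median of 1.11, and the other 20S subunits lie near 0, with a median of -0.05.

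The genes whose pattern over the 8 libraries was most like that of the 10 were sought among 9046 genes outside the lists, by the root mean square difference of log2 CPM centred on each gene's mean. Nearest to the mean of the 10 were *Gm49342* (0.05), *Trafd1* (0.05), *Ifi35* (0.07), *Traf1* (0.07) and *St3gal1* (0.08). Nearest to *Nlrc5* were *Tut4* (0.09), *St3gal3* (0.09), *Rnf114* (0.10), *Trim12c* (0.10) and *Smarce1* (0.10), a different set. These are descriptions over 8 libraries that share their group structure.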

How the data were processed

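RNA was taken from mouse BMDCs by phenol-chloroform extraction and sequenced after a TruSeq Stranded mRNA protocol. According to the study's methods and the labels, the authors aligned reads to mm10 (GRCm38) with STAR within snakePipes and counted them per gene with featureCounts; the gene annotation release and the strand setting are not given in the sources used here. The authors deposited raw read counts per gene in 2 tables, untreated and LPS-treated, without normalization. Reads of near-identical or overlapping genes may be split or lost in such counting.

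Here, gene identifiers were paired with symbols from a table of Ensembl gene names (47224 of 47937; identifiers without one held 0.0847% of counts), positions and lengths were taken from GENCODE M21 (GRCm38), and 0 columns went unused. Genotypes were compared within each table, and LPS responses and the interaction in one fit of all 8 libraries, by edgeR 4.0.16 (filterByExpr, TMM, glmQLFit, glmQLFTest, R 4.3.3) with Benjamini-Hochberg adjusted p under 0.05 over all genes tested. The standard error of a log2 fold change was its size divided by the square root of F, and intervals are 1.96 standard errors either side. The scripts were tested on simulated data. Alternatives were DESeq2 1.42.0, RLE size factors, library size only, other filters (none, or at least 10 counts in every library), a fixed biological coefficient of variation of 0.4, a replicate block, leaving out *Gm42418* or each library, and a log2 fold change of at least 1. The common biological coefficient of variation was 0.0306 among untreated, 0.0573 among LPS-treated and 0.0463 among all 8 libraries, and depth of 4713305 to 6933358 counts limits genes of few counts. Named genes are the 10 listed genes, the targeted genes, some of each wider list and the 5 genes nearest in pattern. The last were taken among genes with a mean log2 CPM of at least 3. From the wider lists came the extremes of log2 fold change in each genotype comparison, a few of set name and those a sentence turns on. Their number was planned as up to 6 of each list, and more are named of the heavy chains and of the transcriptional regulators. The members, the wider lists and the cell type markers were chosen with earlier results of these data known. The study's dose, time and culture conditions are from its methods. A few genes of the wider and marker lists are not reported here by name.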

Additional observations from a re-analysis of the deposited data

Results flagged for a closer look

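For 6 of the 10 genes the response to LPS differed between genotypes by the interaction test in edgeR. The difference of the log2 fold changes, KO minus WT, was 0.761 for *B2m*, 0.595 for *H2-D1*, 0.591 for *Tap2*, 0.589 for *H2-K1*, 0.492 for *Tap1* and 0.280 for *Tapbp*. The genotype difference changed sign for *Tap1*, from -0.21 in untreated cells to 0.28 after LPS, and for *Tap2*, from -0.11, which did not pass, to 0.48. The libraries with the larger responses are also those in which macrophage markers summed to 9277 to 10320 CPM, against 720 to 2163 CPM in WT, and the part of this in the responses was not tested.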

How the results depend on the processing

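Of 740 values of single genes under an alternative, 671 kept direction and side of the threshold, 57 lost the call, 10 gained it and 2 changed sign: *Psmb9* in untreated cells with library size only (-0.053, adjusted p = 0.451) and the interaction term of *Nlrc5* without WT untreated replicate 2 (0.00, adjusted p = 1; -0.093 at the other end of leaving out libraries), neither called before; the cause was not tested. Genes called in untreated cells, after LPS, for LPS in WT, for LPS in KO and for the interaction numbered 5369, 5754, 7561, 6945 and 4070. With a coefficient of variation of 0.4 they were 448, 782, 1110, 850 and 72, and the 10 class I genes called were 0, 0, 0, 2 and 0. With a log2 fold change of at least 1 they were 1444, 1984, 2700, 2373 and 1375, and the class I genes called 0, 0, 6, 9 and 0. DESeq2 called 2831 genes in untreated cells, 3663 after LPS and 2450 interactions. Both of the first 2 alternatives ask by construction for larger changes. Library size only turned the split of higher to lower calls from 2647 and 2722 to 1968 and 3525 in untreated cells, from 2919 and 2835 to 2474 and 3572 after LPS, from 3702 and 3859 to 2443 and 5420 for LPS in WT and from 3510 and 3435 to 2245 and 5200 for LPS in KO, with a median of all genes of -0.23 for LPS in each genotype, against which the class I genes' medians were 0.84 and 1.07. Leaving out each library, which assumes that the lone library left varies like the other groups, gave 7 to 8 class I genes called in untreated cells, 8 to 10 after LPS, 10 for LPS in each genotype and 6 to 8 interactions, the 8 without WT LPS replicate 1, where *Psmb8* and *Psmb9* passed. Same-numbered libraries deviated from their group means with correlations of -0.018 to 0.033 across genes, which shows no pairing by number. Such values cannot exclude a shared mouse or culture, since the origin of the libraries is not given. With the replicate block 5292, 5654, 7438, 6793 and 3884 genes were called, and 8, 9, 10, 10 and 6 of the class I genes. *Psmb9* after LPS was lost there (adjusted p = 0.0772). Leaving out a library moved the KO minus WT log2 ratio of *Psmb10* to *Psmb7* between -0.063 (without KO untreated replicate 1) and 0.204 in untreated cells and 0.304 and 0.515 after LPS, that of *Psmb9* to *Psmb6* between -0.405 and -0.351 and between -0.956 and -0.868, and that of *Psmb8* to *Psmb5* between -0.234 and -0.140 and between -0.170 and -0.144.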
